A study of Homo sapiens with 5 samples.

Results

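Described here are 9 genes whose enzymes make or use 2-oxoglutarate, succinate, fumarate or 2-hydroxyglutarate: OGDH, DLST, DLD, IDH1, IDH2, IDH3A, SDHA, FH and D2HGDH. They were taken by gene symbol from a count table of 28278 symbols, all 9 were present, and all 9 were among the 15271 genes that passed the filter on low counts and were tested. Poly(A) RNA came from HEK293T, a widely used cell line derived from human embryonic kidney. There were 3 libraries of untreated (control) cells and 2 of ascorbic acid-treated cells. Both groups were wild type as far as the labels go and grew in high-glucose medium with serum and antibiotics. Cells had been seeded for 24 h before ascorbic acid was added, and the medium was renewed every 6 h. The labels list exposures of 24 h (before DNA methylation was tested) and 36 h (before RNA methylation was tested). Which of them holds for the sequenced RNA, and the dose, are not in the labels. Nor do the labels name separate cultures, so the p-values rest on library-to-library spread that could be technical.

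2-Oxoglutarate is made in the tricarboxylic acid cycle by the isocitrate dehydrogenases and from glutamate, and is consumed by the 2-oxoglutarate dehydrogenase complex, which turns it into succinyl-CoA. It is also the co-substrate of the Fe(II)-dependent dioxygenases, which include TET enzymes acting on DNA, JmjC enzymes acting on histones and FTO acting on RNA, and which release succinate. Succinate, fumarate and 2-hydroxyglutarate can compete with 2-oxoglutarate in these enzymes, and ascorbic acid is known to keep their iron reduced. The comparison therefore asks whether messenger RNA of the enzymes that set the pool of this co-substrate differed after ascorbic acid.

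The libraries held 35106664 to 57212071 counts. Most counts from 1 to 10 were even (71.3 to 75.9%), the pattern left when each mate of a pair adds a count, so fewer fragments than counts may stand behind a value. Of 12 markers of the line and of kidney, 8 were tested, of which 2 were higher, 1 was lower and 5 did not pass, and their summed level was 864 to 892 CPM (here counts over the unscaled library total) in control and 964 to 995 CPM in treated libraries. VIM, which this line expresses strongly, made up most of this sum and of its rise. It had 29100 to 45905 counts, or 806 to 841 CPM in control and 872 to 915 CPM in treated libraries (totals scaled with TMM factors). VIM did not pass, while the kidney markers SLC34A1 and UMOD had 0 in every library. The intermediate filament genes NEFM (log2 fold change 0.75 ± 0.07, edgeR adjusted p = 3.18e-08) and NES (0.72 ± 0.14, 0.000702) were higher, and LRP2, the megalin receptor of kidney tubules, was lower (-0.45 ± 0.07, 4.98e-05), with 936 to 1683 counts. The summed level of 10 fibroblast markers was 10.9 to 11.2 CPM in control and 20.9 to 21.7 CPM in treated libraries, mostly through COL1A1 and COL3A1. These 2 were higher. PDGFRA (24 to 50 counts, log2 fold change 0.58 ± 0.30) and PDGFRB (4 to 18 counts, 1.13 ± 0.52) did not pass. All 4 tested markers had the treated libraries above the controls, as did 22.6% of all tested genes. POSTN (1 to 14 counts) and LUM (4 to 11) were not tested. No library had more than 2 counts of FAP, THY1, DCN or COL1A2. Of 8 haematopoietic markers, the summed level was 0.627 to 0.979 CPM in control and 1.06 to 1.48 CPM in treated libraries, with CD3E and HBB at 0 throughout. The 2 tested were CD34 and CD14, and neither passed. CD34 had 8 to 24 counts in control and 26 to 38 in treated libraries (log2 fold change 1.21 ± 0.42, edgeR adjusted p = 0.0506). CD14 had 9 to 15 counts over all libraries (-0.13 ± 0.50, 0.898). All other CPM given here use totals scaled with TMM factors. The part of these differences in the results that follow was not tested.

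Of the 9 genes, OGDH and IDH2 were higher with ascorbic acid, none was lower, and 7 did not pass (edgeR quasi-likelihood test, Benjamini-Hochberg adjusted p under 0.05 over all 15271 genes). OGDH was 1.51-fold and IDH2 1.21-fold higher. Over all tested genes 14.3% passed in either direction, 8.53% as higher and 5.76% as lower, so 2 of 9 lies near the background. The median log2 fold change of the 9 genes was 0.08, beside 0.00 over all tested genes. The 2 groups did not overlap in 6 of the 9 genes, 5 with the treated libraries above and 1 with them below. Of all tested genes 43.1% had groups that did not overlap, 22.6% with treated above and 20.4% with treated below.

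**Figure D1:**
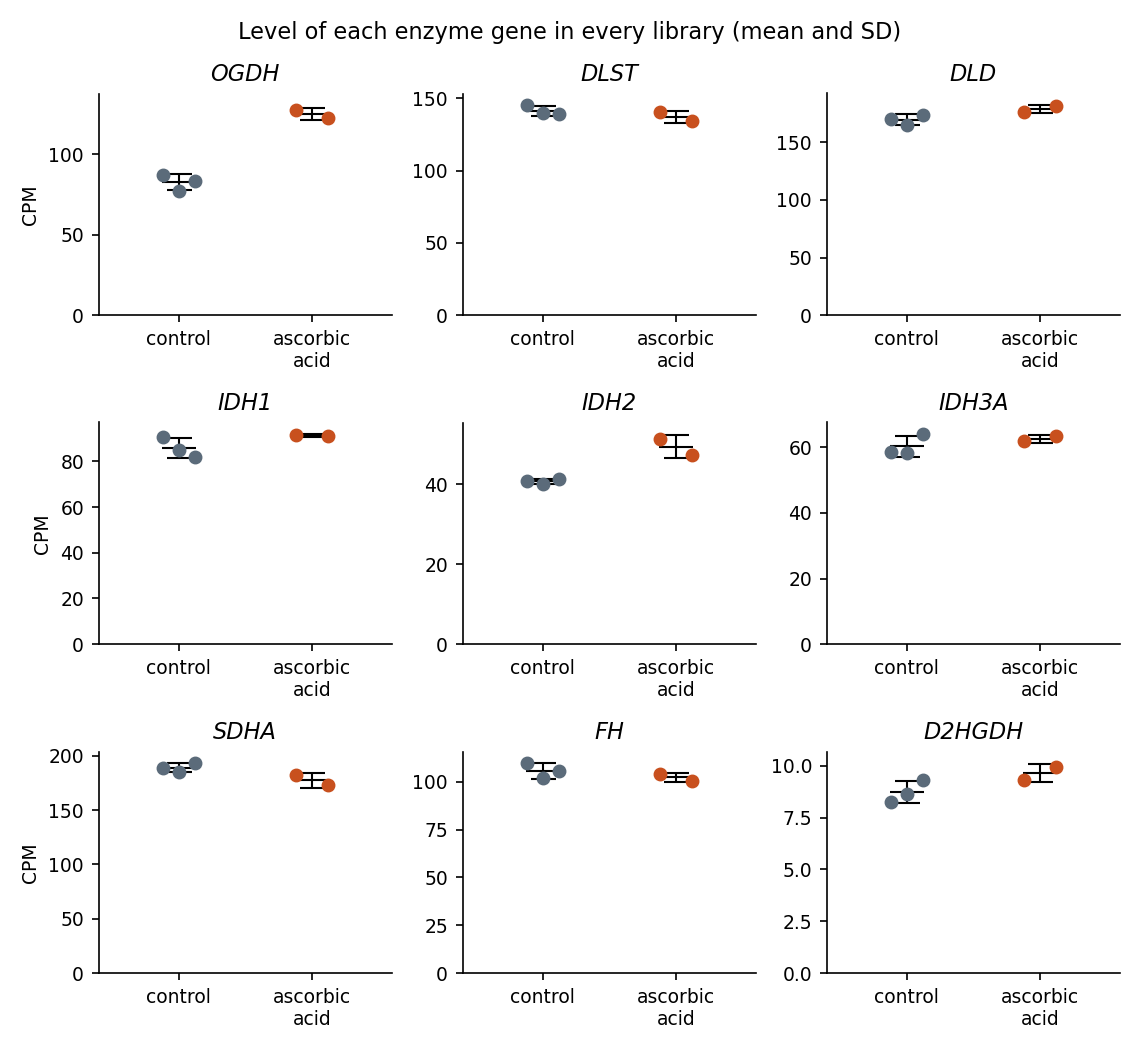
Level of each gene in CPM (vertical axes start at 0 and differ in scale) in the 3 control libraries (grey) and 2 ascorbic acid libraries (orange), with the mean and SD as black bars. OGDH lies at 77.4 to 86.9 CPM in control and at 122 to 127.5 CPM in treated libraries, the widest gap of the 9 panels in proportion to the level.

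OGDH encodes the E1 subunit of the 2-oxoglutarate dehydrogenase complex, the thiamine-dependent enzyme that decarboxylates 2-oxoglutarate. The gene lies on chromosome 7, 44606572 to 44709066 (GRCh38, plus strand). Its level was 86.9, 77.4 and 83.6 CPM in control replicates 1 to 3 and 127.5 and 122 CPM in treated replicates 1 and 2. Both treated libraries were above every control library by more than the spread within either group. The means were 82.6 ± 4.81 CPM (SD, n = 3) and 124.8 ± 3.72 CPM (SD, n = 2), and the log2 fold change was 0.59 ± 0.05 (SE), with a 95% interval of 0.49 to 0.70 (edgeR adjusted p = 4.03e-09). By p-value OGDH ranked 9 among the 15271 tested genes, and by size of increase it ranked 973. Of the 3813 genes with a mean level within a factor of 2 of its own, 2 changed by more. These were FBXL5, the iron-sensing subunit of a ubiquitin ligase (log2 fold change 0.90 ± 0.05), and PLAT, tissue plasminogen activator (0.62 ± 0.06), named after their values were seen. The OGDH call held when either treated library or any control library was left out (log2 fold change 0.55 to 0.64), and against a minimum fold of 1.2 (edgeR glmTreat, adjusted p = 2.58e-05).

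The exons of OGDH overlapped no exon of another gene in GENCODE release 29. None of the 4132 words of 50 bases in its longest transcript occurred in a transcript of another gene of that annotation, a count of exact matches that leaves copies with mismatches untested. By the same count IDH2, the other called gene, shared 3.37% of its words with 59 other genes, at most 0.87% with a single gene. OGDHL, the paralog that can take the place of OGDH in the complex, had 18.5 ± 2.92 CPM (SD, n = 3) in control and 16.3 ± 0.471 CPM (SD, n = 2) in treated libraries, and it did not pass (log2 fold change -0.17 ± 0.10, edgeR adjusted p = 0.246). The nearest tested neighbours of OGDH were TMED4, which ends 24285 bases before it, and ZMIZ2, which starts 39515 bases after it. Neither passed, with log2 fold changes of -0.07 ± 0.05 for TMED4 (edgeR adjusted p = 0.355) and 0.05 ± 0.07 for ZMIZ2 (0.682).

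**Figure D2:**
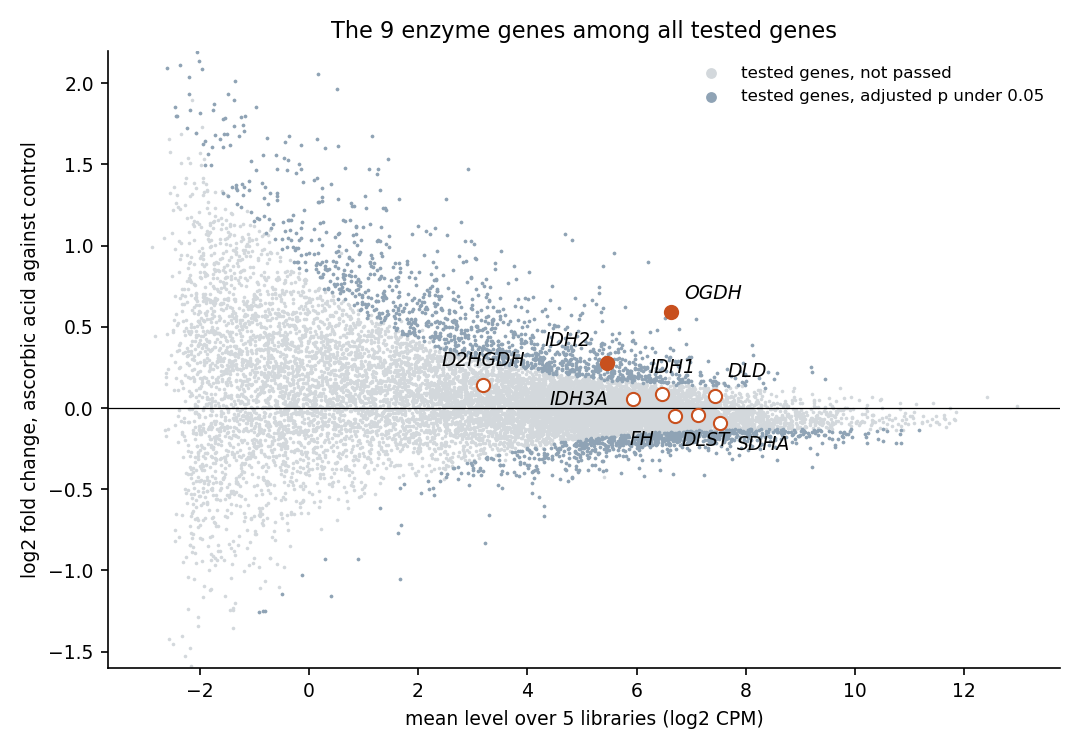
Log2 fold change of each tested gene (ascorbic acid against control) against its mean level in log2 CPM, with the 9 genes as large orange circles, filled where the edgeR adjusted p is under 0.05, and 11 tested genes outside the plotted range. OGDH (0.59) stands above nearly all genes of its level, IDH2 (0.28) lies among the called genes, and the other 7 lie between -0.09 and 0.14.

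DLST and DLD encode the other 2 catalytic subunits, the E2 succinyltransferase, which carries the lipoyl arm, and the E3 dihydrolipoyl dehydrogenase, which the complex shares with other dehydrogenases. DLST (chromosome 14, 74881891 to 74903745) had 145.5, 140.1 and 139 CPM in control and 140.3 and 134.5 CPM in treated libraries, and the groups overlapped. Its log2 fold change was -0.04 ± 0.05 (95% interval -0.14 to 0.05, edgeR adjusted p = 0.607), and its sign turned with cyclic loess scaling (0.01). DLD (chromosome 7, 107890970 to 107931730) had 170.1, 165 and 174 CPM in control and 176 and 181 CPM in treated libraries. Both treated libraries were above the controls by a narrow margin, and DLD did not pass (0.08 ± 0.05, 95% interval -0.02 to 0.17, edgeR adjusted p = 0.288). It passed only with smooth trends over GC content and length removed (0.12, adjusted p = 0.0295). DLST shared 7.42% of its 50-base words with the pseudogene DLSTP1, which had 71 to 115 counts against 4808 to 8191 for DLST.

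The number of OGDH counts per DLST count, a ratio that does not depend on library scaling, was 0.597, 0.552 and 0.602 in control libraries and 0.908 in both treated libraries. It was 1.56-fold higher with ascorbic acid. OGDH per DLD was 0.511, 0.470 and 0.480 in control and 0.723 and 0.674 in treated libraries, 1.43-fold higher. Both ratios had groups that did not overlap and an exact permutation p of 0.1 (two-sided, 0.2 adjusted over 6 ratios), the smallest p that 3 libraries against 2 can give. Groups also did not overlap for DLST per DLD, IDH2 per IDH1 and IDH3A per IDH2, so this was not particular to OGDH. Of single tested genes 43.1% had groups that did not overlap. DLST per DLD was 0.855, 0.851 and 0.798 in control and 0.796 and 0.742 in treated libraries, a difference of 0.921-fold (exact permutation p = 0.2, two-sided, 0.24 adjusted). The balance of OGDH transcripts to those of its partner subunits thus differed between these libraries by more than the spread within groups, in a design too small to pass a threshold of 0.05.

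**Figure D3:**
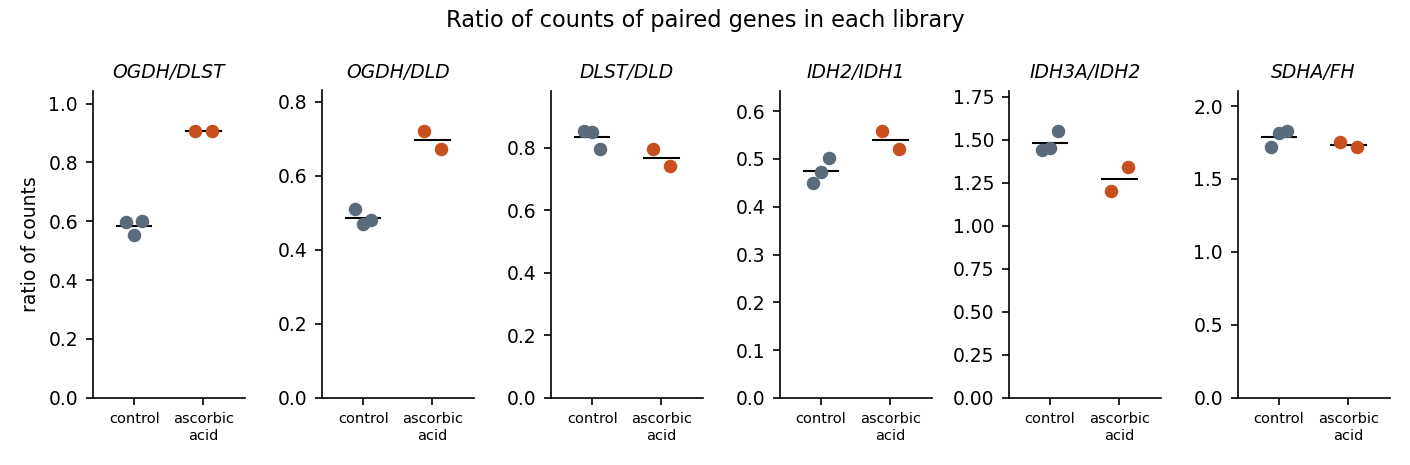
Ratio of the counts of 2 genes in each library (vertical axes start at 0 and differ in scale) for 6 pairs, with control libraries in grey, ascorbic acid libraries in orange and the group mean as a line. OGDH/DLST stands at 0.552 to 0.602 in control and 0.908 in treated libraries, while SDHA/FH overlaps between the groups.

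Per unit of exon length, as TPM (counts per base, scaled to the same sum in each library) over the union of a gene's exons, OGDH stood at 67.2 ± 3.47 TPM (SD, n = 3) in control and 104.7 ± 1.24 TPM (SD, n = 2) in treated libraries. DLST had 132 ± 3.50 and 132 ± 1.56 TPM, and DLD 136 ± 2.54 and 148 ± 5.51 TPM in the same groups. OGDH was thus the least abundant of the 3 subunit transcripts in both groups on this scale, and also with the longest transcript as the length (57.6 TPM in control and 89.9 in treated libraries, beside 145 and 146 for DLST). The control levels of the 9 genes ran in the order FH (209 TPM), DLD, DLST, SDHA (95.5), IDH1 (77.2), OGDH, IDH2 (61.3), IDH3A (37.4) and D2HGDH (7.03). DLD and DLST did not differ beyond their spread in control libraries (ranges 133 to 138 and 128 to 135 TPM), while the ranges of OGDH (63.6 to 70.6 TPM) and its neighbours IDH1 (73.1 to 81.3) and IDH2 (61.1 to 61.6) did not meet. By union length OGDH moved from rank 6 to rank 4 in treated libraries, above SDHA and IDH1. By longest transcript it held rank 6 in both groups, and SDHA had the highest level (183.5 TPM in control), so the order depends on the length used.

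The isocitrate dehydrogenases make 2-oxoglutarate from isocitrate. IDH1 is the NADP-dependent enzyme of cytosol and peroxisomes, IDH2 its mitochondrial counterpart, and IDH3A the catalytic subunit of the NAD-dependent mitochondrial enzyme of the cycle itself. IDH2 (chromosome 15, 90083045 to 90102504, minus strand) had 40.7, 40.1 and 41.2 CPM in control and 51.4 and 47.3 CPM in treated libraries. The 3 control libraries lay within a narrow band and both treated libraries were above it. The means were 40.7 ± 0.556 CPM (SD, n = 3) and 49.3 ± 2.86 CPM (SD, n = 2), with a log2 fold change of 0.28 ± 0.06 (95% interval 0.16 to 0.40, edgeR adjusted p = 0.00205). The call held with each library left out in turn, where the log2 fold change ran from 0.22 to 0.33 and the adjusted p reached 0.0492, and it ended against a minimum fold of 1.2 (glmTreat, adjusted p = 1).

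IDH1 (chromosome 2, 208236227 to 208266074, minus strand) had 90.6, 84.9 and 82.1 CPM in control and 91.8 and 91.0 CPM in treated libraries. Control replicate 1 lay just below both treated libraries and the groups did not overlap, but IDH1 did not pass (log2 fold change 0.09 ± 0.05, 95% interval -0.02 to 0.20, edgeR adjusted p = 0.282). With trends over GC content and length removed it passed (0.12, adjusted p = 0.0430). IDH3A (chromosome 15, 78131498 to 78171949) had 58.7, 58.1 and 64.0 CPM in control and 61.8 and 63.5 CPM in treated libraries, and control replicate 3 was the highest of the 5. It did not pass (0.06 ± 0.06, 95% interval -0.06 to 0.17, edgeR adjusted p = 0.552). Exons of ACSBG1 on the opposite strand covered 38.2% of the IDH3A exons and shared 62.8% of the 50-base words of its longest transcript, so counts taken without regard to strand could not separate them there, although ACSBG1 itself stood at 0.367 CPM in control and 0.377 CPM in treated libraries.

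Of the regulatory subunits that IDH3A needs, IDH3B fell by 0.19 ± 0.05 on the log2 scale (edgeR adjusted p = 0.0122), with means of 101.5 ± 4.88 CPM (SD, n = 3) in control and 88.8 ± 0.264 CPM (SD, n = 2) in treated libraries. IDH3G had -0.11 ± 0.06 and did not pass (edgeR adjusted p = 0.241). The IDH3B call ended without control replicate 3 (-0.15, adjusted p = 0.0624), with library totals as the only scaling (-0.15, 0.0543) and with cyclic loess (-0.15, 0.0623). With the replicate number as a block it fell just short (-0.15, adjusted p = 0.05001). No treated library has number 3, so the block takes control replicate 3 out of the group difference. It is therefore no separate check from leaving that library out. IDH2 counts per IDH1 count were 0.449, 0.472 and 0.502 in control and 0.560 and 0.520 in treated libraries, 1.14-fold higher (exact permutation p = 0.2, two-sided, 0.24 adjusted). IDH3A per IDH2 was 1.44, 1.45 and 1.55 in control and 1.204 and 1.344 in treated libraries, 0.859-fold (exact permutation p = 0.1, two-sided, 0.2 adjusted).

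SDHA encodes the flavoprotein of succinate dehydrogenase, which oxidises succinate to fumarate, and FH encodes fumarate hydratase, which turns fumarate into malate. SDHA (chromosome 5, 218241 to 256700) had 189, 185 and 193 CPM in control and 182 and 173 CPM in treated libraries. Both treated libraries were below the controls, by less than 3 CPM at the nearest, and SDHA did not pass (log2 fold change -0.09 ± 0.05, 95% interval -0.18 to 0.00, edgeR adjusted p = 0.202). SDHA shared 11.7% of its 50-base words with other genes, chiefly the pseudogene SDHAP3 (9.82%), so its counts are uncertain there. FH (chromosome 1, 241497603 to 241519761, minus strand) had 109.8, 102 and 105 CPM in control and 104 and 100.6 CPM in treated libraries, with groups that overlapped. It did not pass (-0.05 ± 0.05, 95% interval -0.15 to 0.05, edgeR adjusted p = 0.577). FH shared 5.89% of its 50-base words with the pseudogene FHP1. SDHA counts per FH count were 1.72 to 1.83 in control and 1.72 to 1.75 in treated libraries (exact permutation p = 0.3, two-sided and adjusted).

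D2HGDH encodes the mitochondrial dehydrogenase that oxidises D-2-hydroxyglutarate back to 2-oxoglutarate. The gene (chromosome 2, 241734579 to 241768816) was the least expressed of the 9, with 323 to 466 counts per library. Its level was 8.28, 8.66 and 9.33 CPM in control and 9.34 and 9.96 CPM in treated libraries, so that control replicate 3 and treated replicate 1 were nearly equal. It did not pass (log2 fold change 0.14 ± 0.10, edgeR adjusted p = 0.382), with a 95% interval of -0.07 to 0.36 that is the widest of the 9. Antisense genes AC114730.1 and AC114730.2 covered 6.95% and 11.5% of its exons, and 19.6% of its 50-base words were shared with them.

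SDHA, D2HGDH and IDH3A, none of which passed, share a promoter word known from nuclear genes of mitochondrial proteins, and its copies are shown to make that shared feature visible. The RefSeq table (GRCh38.p14) held a window before the start for 8 of the 9 genes, all but OGDH, and the 250 bases before each RefSeq start were searched on both strands. The RefSeq starts of SDHA, D2HGDH and IDH3A lie inside the spans given above, which run from the outermost GENCODE transcript, so the words of D2HGDH and IDH3A and 2 of the SDHA copies also lie inside those spans. The core recognised by nuclear respiratory factor NRF1, searched as GCGCA, any 1 base and GCGC, was found in 3 of those 8 genes. Over all 27305 genes with a window, tested or not, the share was 6.2% (5.08% of all 35116 windows, since a gene can have several). That share was higher among tested genes, the fitting comparison for these 8, where 1287 had the word and 10229 did not. SDHA held 4 copies whose starts were 49 bases apart. The word is in capitals, and each line reads 5′ to 3′ on the gene's strand.
SDHA, chr5:218146-218171, plus strand: tccgctttGCGCAGGCGCggcgcccc
SDHA, chr5:218195-218220, plus strand: ggcatggtGCGCAGGCGCgatgtccc
SDHA, chr5:218244-218269, plus strand: ggcgtggtGCGCAGGCGCggtatccc
SDHA, chr5:218293-218318, plus strand: ggtgtggtGCGCAGGCGCagtctgcg
D2HGDH, chr2:241734597-241734622, plus strand: ccgtcaatGCGCAGGCGCggcgtcgc
IDH3A, chr15:78149344-78149361, plus strand, word on the opposite strand: tggggtggGCGCTTGCGC

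The 3 genes with this word had log2 fold changes of -0.09 (SDHA), 0.14 (D2HGDH) and 0.06 (IDH3A), and none passed. Over all tested genes with a window, 4.27% of the 1287 with the word were called higher and 6.76% lower, beside 9.41% and 6.14% of the 10229 without it. The word CCGGAAG of ETS factors was found before DLST, and in 10.2% of genes and 8.52% of windows. CCAAT, the NF-Y core, was found before FH, IDH1 and DLD, and in 37% of genes and 32.01% of windows. These shares are over all genes with a window and were also higher among tested genes. There 2052 had the ETS word and 9464 did not, while 4790 had CCAAT and 6726 did not. IDH2 held none of the 3 words in its window. These matches describe the letters only.

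The wider pathway was followed in 8 lists of 74 enzymes and carriers, of which 72 were tested. Of these 6 rose, 10 fell and 56 did not pass, and the median log2 fold change was -0.07. The share that passed, 22.2%, stands beside 14.3% of all tested genes, 8.53% as higher and 5.76% as lower. The counts by direction in each list below stand beside these same shares, and no set test was run. Library totals as the only scaling gave 8 higher and 4 lower, cyclic loess 6 higher and 4 lower, and leaving out treated replicate 2 left 2 higher and 6 lower, so the counts by direction depend on scaling and on that library.

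**Figure D4:**
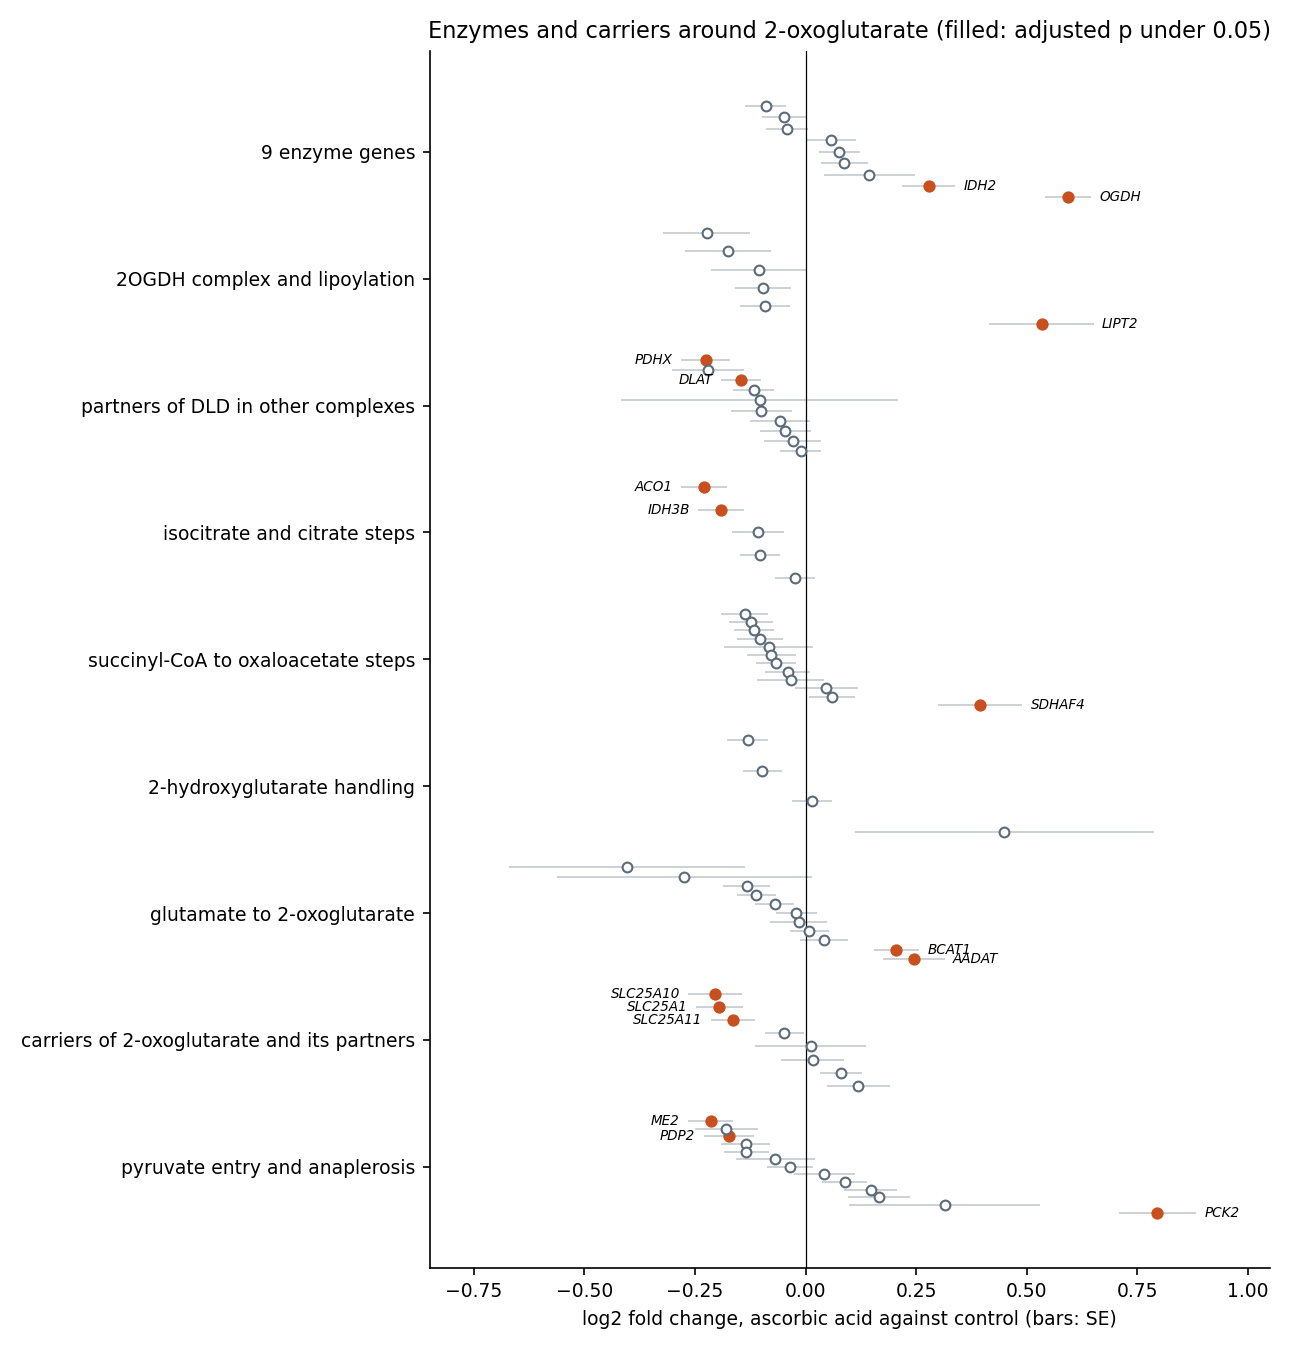
Log2 fold change (ascorbic acid against control) with its SE for the 9 enzyme genes and 69 of the 72 tested genes of 8 pathway lists, filled orange and named where the edgeR adjusted p is under 0.05. PCK2 (0.80), OGDH (0.59), LIPT2 (0.53) and SDHAF4 (0.40) lie farthest to the right among the filled points, and PDHX and ACO1 (both -0.23) lie farthest to the left among them.

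In the list of other genes of the 2-oxoglutarate dehydrogenase complex and of lipoylation, 1 of 6 rose and none fell. LIPT2, which loads the octanoyl group from which the lipoyl arm of DLST is made, rose by 0.53 ± 0.12 on the log2 scale (edgeR adjusted p = 0.00252). It had 5.28, 5.50 and 5.63 CPM in control and 7.34 and 8.49 CPM in treated libraries, and its call ended without treated replicate 2 (0.42, adjusted p = 0.0707). LIAS, the lipoyl synthase, had -0.22 ± 0.10 and did not pass (edgeR adjusted p = 0.125). Of 10 partners of DLD in other complexes, 2 fell and none rose. PDHX, the E3-binding subunit of pyruvate dehydrogenase, fell by 0.23 ± 0.06 (edgeR adjusted p = 0.00631) and DLAT, its E2 subunit, by 0.15 ± 0.05 (0.0297). The DLAT call ended without control replicate 1 or 2 or either treated library (-0.15 to -0.12, adjusted p = 0.0582 to 0.133). It also ended with library totals (-0.10, 0.123), upper-quartile factors (-0.13, 0.0538), a filter of 5 CPM (-0.12, 0.0651) and cyclic loess (-0.09, 0.201).

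Of 6 genes of the isocitrate and citrate steps, 2 fell and none rose. Beside IDH3B, ACO1, the cytosolic aconitase that doubles as an iron regulatory protein, fell by 0.23 ± 0.05 (edgeR adjusted p = 0.00353). Of 12 genes from succinyl-CoA to oxaloacetate, 1 rose and none fell. SDHAF4, an assembly factor that acts on SDHA, rose by 0.40 ± 0.09 (edgeR adjusted p = 0.00514), with 10.2 ± 0.843 CPM (SD, n = 3) in control and 13.5 ± 0.0690 CPM (SD, n = 2) in treated libraries. The iron-sulfur subunit SDHB (-0.10 ± 0.05) and the membrane anchors SDHC (-0.12 ± 0.05) and SDHD (-0.04 ± 0.05) did not pass.

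Of 12 tested genes that link glutamate to 2-oxoglutarate, 3 rose and none fell. Among them were the transaminase genes AADAT (0.25 ± 0.07, edgeR adjusted p = 0.0165) and BCAT1 (0.21 ± 0.05, 0.00697). Without treated replicate 2 neither of these calls held (0.15 to 0.20, adjusted p = 0.0962 to 0.139). AADAT was also lost without control replicate 1 (0.24, adjusted p = 0.0642). The glutamate dehydrogenase GLUD1 (-0.07 ± 0.04) and the aspartate transaminases GOT1 (-0.13 ± 0.05) and GOT2 (-0.11 ± 0.04) did not pass.

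Of 8 carriers, 3 fell and none rose. They were the mitochondrial 2-oxoglutarate carrier SLC25A11 (-0.16 ± 0.05, edgeR adjusted p = 0.0260), the dicarboxylate carrier SLC25A10 (-0.20 ± 0.06, 0.0223) and the citrate carrier SLC25A1 (-0.20 ± 0.05, 0.0130). None of the 3 calls held without control replicate 3 (-0.16 to -0.14, adjusted p = 0.0591 to 0.0858) or without treated replicate 2 (-0.17 to -0.16, 0.0615 to 0.147). SLC25A11 was also lost without control replicate 1 or treated replicate 1, and SLC25A10 without control replicate 1 (adjusted p = 0.0582 to 0.110). Each also lost its call with library totals as the only scaling (-0.16 to -0.12, adjusted p = 0.0515 to 0.102). The same held with cyclic loess (-0.19 to -0.12, 0.0533 to 0.123) and with the replicate number as a block (-0.16 to -0.14, 0.0523 to 0.0792). The block takes control replicate 3 out of the group difference, so it is no separate check from leaving that library out. A filter of 5 CPM ended the SLC25A11 call as well (-0.14, 0.0582).

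Of 13 tested genes of pyruvate entry and anaplerosis, 1 rose and 2 fell. PCK2, the mitochondrial phosphoenolpyruvate carboxykinase that draws on oxaloacetate, rose by 0.80 ± 0.09 (edgeR adjusted p = 2.29e-07), the largest change in the 8 lists. It had 11.1, 11.0 and 9.94 CPM in control and 19.3 and 17.9 CPM in treated libraries, and its call held with each library left out. ME2, the mitochondrial malic enzyme, fell by 0.21 ± 0.05 (edgeR adjusted p = 0.00514) and PDP2, a pyruvate dehydrogenase phosphatase, by 0.17 ± 0.06 (0.0388). ME2 was lost without treated replicate 1 (-0.16, adjusted p = 0.0733), and PDP2 without control replicate 1 or 2 or either treated library (-0.19 to -0.15, 0.0672 to 0.159). PDP2 was also lost with library totals (-0.13, adjusted p = 0.132), upper-quartile factors (-0.16, 0.0632), a filter of 5 CPM (-0.15, 0.0740) and cyclic loess (-0.15, 0.0903).

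The genes whose pattern over the 5 libraries was most like that of OGDH were found by the distance between log2 CPM values centred on each gene's mean, among 7767 other genes averaging 20 CPM or more. PRAME, a cancer-testis antigen (distance 0.0931), ARHGEF6, a Rac and Cdc42 exchange factor (0.0995), and NDRG1, a stress-responsive cytoplasmic protein (0.114), were nearest. Their log2 fold changes were 0.67 ± 0.07, 0.55 ± 0.07 and 0.54 ± 0.06. With 5 libraries in 2 groups, the distance reflects mostly the size of the group difference.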

How the data were processed

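The deposited table gives counts of reads per gene symbol, as whole numbers, and is not normalized. The submitters' processing notes name hg38 (GRCh38), featureCounts, STAR, DESeq2 and Trimmomatic 0.39. For featureCounts the sources used here state neither annotation nor strand setting, nor what became of multiply mapped reads. Columns were assigned by name, "con" as control and "vc" as vitamin C, and 0 columns had no sample. Replicates differed by more than counting noise (chi-square per degree of freedom 3.95 to 7.2) and were kept apart.

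Genes were filtered with filterByExpr, scaled with TMM factors (0.984 to 1.03) and compared with edgeR 4.0.16 in R 4.3.3 (robust glmQLFit, glmQLFTest, two-sided, no covariates). Standard errors were the absolute log2 fold change over the root of F. CPM use TMM-scaled totals, except the summed levels of marker lists, which use library totals. In a simulation of this comparison with 15160 genes and 50 true changes per fold size, 48% of changes of 1.2-fold, 98% of 1.5-fold and 100% of 2-fold were recovered, and 11 of 184 calls were false. Lengths, positions and overlaps are from GENCODE release 29 on GRCh38, matched for 26218 symbols.

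The 9 genes and the lists were chosen with earlier results of these data known. Named beside the 9 are the called genes of a list with the smallest p (at most 3; without any, its 2 most expressed genes) and the 3 genes most like OGDH. Genes outside that rule, the neighbours of OGDH, the shared words and the promoter words were chosen after values were seen. Alternatives were DESeq2 1.42.0, limma-voom (limma 3.58.1), other scalings and filters, a replicate block, no robust prior, a minimum fold of 1.2, halved counts, cyclic loess, removal of GC and length trends (mgcv 1.9.3) and each library left out. Results of a few listed genes are not reported here.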

Additional observations from a re-analysis of the deposited data

How the results depend on the processing

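Of the 9 genes, OGDH and IDH2 were called in the main test and in all 17 alternatives without a minimum fold, and OGDH alone was called (1 gene) against a fold of 1.2. With GC and length trends removed 4 were called, DLD and IDH1 being added. Leaving out 1 library gave 2 called genes each time. Of all tested genes 2182 passed (1303 higher, 879 lower), 286 against a fold of 1.2, 1439 with cyclic loess, and 1180 to 2047 with 1 library left out, the lowest without control replicate 1. Library totals alone gave 1712 higher and 389 lower. Of the 72 tested pathway genes 16 passed, 1 against a fold of 1.2 (PCK2), 10 with cyclic loess, and 8 to 14 with 1 library left out, the lowest without treated replicate 2. The cause of these differences was not tested. A lone treated library was taken to have the spread of the controls. The labels share replicate numbers but name no shared source, and deviations of same-numbered libraries correlated at -0.0375 and 0.202. Control replicate 3 and treated replicate 1, with different numbers, gave 0.204. With 2 treated libraries the deviations from their mean are equal and opposite, so these correlations cannot decide whether libraries are paired. With the replicate number as a block 1880 genes passed, with 2 of the 9 genes (OGDH 0.60, IDH2 0.29) and 14 pathway genes. No treated library has number 3, so control replicate 3 adds nothing to the group difference in that fit. In the simulation 48% of changes of 1.2-fold were recovered. It gave 184 calls beside 2182 in the data, so its adjusted threshold was stricter. That share therefore cannot be carried over to these data, where small changes may still be missed.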

Other observations

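Pseudogene copies of the 9 genes gave a small signal of their own. SDHAP3 had 10.3 to 12.5 CPM in control and 10.9 to 12.6 CPM in treated libraries, and SDHAP1 had 5.58 to 6.76 and 5.57 to 6.73 CPM. Neither passed (edgeR, log2 fold changes of 0.06 ± 0.10 and -0.02 ± 0.13, adjusted p = 0.762 and 0.937). Among genes whose exons overlap those of the 9 on the opposite strand, CIB2, a calcium and integrin binding protein gene beside IDH3A, had 0.68 ± 0.09 (edgeR adjusted p = 7.07e-06) and LAMB1, a laminin chain gene beside DLD, 0.32 ± 0.05 (0.000119). They cover 0.688% of the exons of IDH3A and 1.32% of those of DLD.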
